A study of Mus musculus with 6 samples.

Results

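The collagen chain genes are the genes whose symbol is Col, a number, the letter a and a number, such as Col1a1. The rule used names alone, and 44 of the 49568 genes in the count table met it. RNA was sequenced in 6 samples of MC/9, an established mouse line of mast cells, which are granule-bearing immune cells of tissues. By the study's design text, these cells were placed on 7F2, a mouse line of bone-forming osteoblasts, then rPTH was given to the co-culture (10 nM, 24 h) and RNA was taken from the collected mast cells. The labels mark 3 samples as control, with no treatment, and 3 as rPTH, a name that they do not spell out. Nothing given says whether osteoblasts were present for the controls too, or how many osteoblasts came along with the collected cells. The treatment field names rPTH for every sample, controls included, so groups were taken from the field that lists each sample's own treatment. Nothing says either that replicates were separate cultures, so the p-values reflect variation among these samples alone, possibly technical. Each cell type is represented by 1 line.

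Collagens are secreted matrix proteins whose chains wind around each other into a triple helix, which they can do because glycine recurs at a fixed spacing, the Gly-X-Y repeat. Fibril-forming collagens (I, II, III, V, XI, XXIV, XXVII) give bone, skin and cartilage their tensile strength, collagen IV forms the sheet of basement membranes, collagen VI forms beaded filaments around cells, and fibril-associated collagens sit on the fibril surface. Osteoblasts are known for making collagen I, the bulk of bone matrix, and mast cells are not known as a main source of it.

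The repeat can be read from the transcripts. Glycine is coded by GGN, where N is any base, and in the longest GENCODE M21 coding transcript the longest unbroken run with a GGN codon at every 3 codons was 338 repeats in Col1a1, 339 in Col1a2, 344 in Col3a1, 338 in Col5a1 and 339 in Col5a2. The run was 217 repeats in Col27a1 and 216 in Col24a1, which are fibril-forming as well. It was shorter in the sheet-forming and filament chains, at 40 in Col4a1, 66 in Col4a2, 87 in Col6a1, 87 in Col6a2 and 45 in Col6a3, and it was 32 in Col12a1, a fibril-associated chain of 3065 codons.

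To let promoters of the more abundant chains be compared, the 250 bases before the start of transcription are shown for each of the 12 with the highest level per length (listed below) whose stretch is in the RefSeq promoter table and holds no annotated exon in GENCODE M21. These 5, on GRCm38.p6, are Col3a1 at chr1:45311288-45311537 on the plus strand, Col5a1 at chr2:27886175-27886424 on the plus strand, Col6a2 at chr10:76623631-76623880 and Col6a3 at chr1:90843972-90844221, both on the minus strand, and Col8a1 at chr16:57754738-57754987 on the minus strand, each read 5′ to 3′ along its own gene. Capitals mark TATAAA and GGGCGG, searched on both strands (the latter reads CCGCCC on the other strand), and no marked stretch overlaps another. Col6a2 has another start in the table, whose stretch is exonic and is not shown.

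Col3a1: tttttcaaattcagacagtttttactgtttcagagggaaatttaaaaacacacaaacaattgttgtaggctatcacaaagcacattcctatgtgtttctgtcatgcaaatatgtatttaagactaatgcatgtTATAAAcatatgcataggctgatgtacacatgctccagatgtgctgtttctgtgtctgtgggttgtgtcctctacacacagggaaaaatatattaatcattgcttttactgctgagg

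Col5a1: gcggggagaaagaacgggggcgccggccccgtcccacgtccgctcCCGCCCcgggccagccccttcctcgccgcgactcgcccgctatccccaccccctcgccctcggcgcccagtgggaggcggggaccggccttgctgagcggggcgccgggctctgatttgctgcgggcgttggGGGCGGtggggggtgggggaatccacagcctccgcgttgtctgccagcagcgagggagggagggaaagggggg

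Col6a2: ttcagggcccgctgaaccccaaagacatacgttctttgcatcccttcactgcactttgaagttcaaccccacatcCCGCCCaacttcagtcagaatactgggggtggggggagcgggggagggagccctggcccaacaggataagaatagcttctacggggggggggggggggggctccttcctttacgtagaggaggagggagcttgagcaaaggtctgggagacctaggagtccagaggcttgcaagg

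Col6a3: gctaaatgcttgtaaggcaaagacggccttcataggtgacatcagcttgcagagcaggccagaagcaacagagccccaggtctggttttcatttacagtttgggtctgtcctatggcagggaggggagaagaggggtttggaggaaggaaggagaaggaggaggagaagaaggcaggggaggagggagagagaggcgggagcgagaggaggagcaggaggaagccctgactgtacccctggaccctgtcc

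Col8a1: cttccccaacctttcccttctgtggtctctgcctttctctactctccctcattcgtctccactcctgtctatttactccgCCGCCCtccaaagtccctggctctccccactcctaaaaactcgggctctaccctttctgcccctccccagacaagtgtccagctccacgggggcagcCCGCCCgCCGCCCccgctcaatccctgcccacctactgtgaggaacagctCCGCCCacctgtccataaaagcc

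Col3a1 held 1 TATAAA, which began 117 bases before the start, and no GGGCGG. Col5a1 held 2 matches to GGGCGG, which began 205 and 73 bases before the start, and Col8a1 held 4, which began 170, 73, 66 and 23 bases before it. Col6a2 held 1, which began 175 bases before the start, and Col6a3 held none of the motifs. TATAAA occurred in 12.4% of all 32851 promoters of the table over the same 250 bases, and GGGCGG in 32.7%. CCAAT, searched on both strands, occurred in 33.8% of all promoters and in none of these 5. Of the 44 members 35 matched a RefSeq promoter, 5 of them with TATAAA, 21 with GGGCGG and 13 with CCAAT. A gene with several promoters was counted if any of them held the motif. The percentages are shares of single promoters, so the counts of genes cannot be set directly against them. Of the 12 leading collagens 9 matched, 1 of them with TATAAA (Col3a1), 5 with GGGCGG (Col1a2, Col4a2, Col5a1, Col6a2 and Col8a1) and 3 with CCAAT (Col1a2, Col4a1 and Col4a2). These are matches of letters, not shown binding sites.

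Total counts were 22282095 to 24993606 in the controls and 30623648 to 33577977 with rPTH. Levels are in CPM, counts scaled to a library total common to all samples. Where no read was counted the limit is 3 counts, or 0.135 CPM in the shallowest sample and 0.0893 CPM in the deepest, for counting error only. Among the samples rPTH 1 stood apart with the most collagen transcripts, and control 1 with a TMM scaling factor of 0.81 against 1.03 to 1.06 in the other 5. All 10 mast cell markers were in the table, and in plain CPM they summed to 6735 to 6876 in the controls and 5378 to 7079.9 with rPTH, lowest in rPTH 1. The log2 fold change, on the TMM scale, was below 0 for 7 of the 9 tested markers, while 41.5% of all tested genes lay above 0. Groups did not overlap for 3 of 9, all lower with rPTH (Gata2, Tpsb2 and Tpsab1), against 8.46% of all tested genes. None passed the edgeR test given below. Cpa3, a granule protease, and Fcer1a, a chain of the IgE receptor, led the mast cell markers, and Mcpt4 had 0 to 4 counts a sample.

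Collagen transcripts were present in every sample of these collected mast cells. Together the 44 genes made up 0.0811%, 0.112% and 0.103% of all counts in the controls (replicates 1 to 3, an order kept below) and 0.203%, 0.128% and 0.141% with rPTH. In plain CPM the sums were 811, 1118 and 1032 for the controls and 2029, 1277 and 1412 for rPTH. All 3 rPTH samples lay above all 3 controls, and rPTH 1 lay far above the other 5. The means were 987 ± 159 CPM and 1573 ± 401 CPM (SD, n = 3 each), 1.59 times as high. Without rPTH 1 the difference of 586 CPM became 357 CPM. With all samples it was 481 CPM when scaled by TMM factors and 528 CPM by DESeq2 size factors. With protein-coding genes alone in the library total it was 632 CPM. The summed non-collagen markers of stromal cells and osteoblasts, described further on, were 1.61 times as high with rPTH, and their part in the collagen difference was not tested. In bulk samples more cells of a type and more RNA per cell cannot be told apart.

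A few collagens made up this sum. By level per kb of summed exon length (TMM-scaled CPM per kb, mean of the 6 samples) 12 genes led: Col1a1 (28.4), Col4a1 (21.4), Col5a2 (16.05), Col6a1 (14.2), Col4a2 (13.8), Col1a2 (11.3), Col6a3 (10.4), Col8a1 (9.64), Col5a1 (9.52), Col6a2 (6.14), Col12a1 (3.12) and Col3a1 (2.60). They held 92.9% to 96.1% of the collagen counts of each sample. Col18a1 (2.60), Col16a1 (2.25) and Col15a1 (2.22) came next at levels close to that of Col3a1. The exon sum includes parts that a main transcript does not use: it is 12.426 kb for Col1a2, whose longest coding transcript has 5348 bases. Per kb of that transcript, a scale chosen after seeing the data, the same 12 genes led and Col1a2 moved from place 6 to 2.

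No collagen gene passed the test. Of the 44 genes 23 passed the filter on low counts (0.3596 CPM or more in at least 3 samples) and 21 did not. In edgeR's quasi-likelihood test with Benjamini-Hochberg adjustment 0 of 23 had an adjusted p under 0.05 (0% of all 16696 tested genes), and their adjusted p ran from 0.619 to 0.912. DESeq2 and limma-voom called 0 of 23 as well. An unadjusted p under 0.05 was reached in edgeR by 7 of 23, all higher with rPTH, against 1.98% of all tested genes in that direction, and by 0 of 23 lower, against 5.89%. The 7 were Col1a2, Col3a1, Col5a2, Col6a1, Col6a3, Col8a1 and Col12a1. With DESeq2 it was 10 of 23 (3.76% of all genes; 0.0299% by adjusted p), with limma-voom 7 (2.11%), and with edgeR on protein-coding genes alone 9 (3.38%).

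Groups did not overlap for 10 of 23 genes, all higher with rPTH, against 8.35% of all tested genes, and for 0 of 23 lower, against 8.46%. Of these 10, the transmembrane chain Col25a1 passed the filter with all 3 rPTH samples but only 2 controls, so that it was tested partly for being higher with rPTH. The log2 fold change (rPTH minus control) was above 0 for 17 of 23 genes against 41.5% of all tested genes, with a median of 0.50 against -0.09. All members share the same 6 samples, so these counts are not independent observations. They also hung on single samples: an unadjusted p under 0.05 and a higher level was reached by 0 of 23 without rPTH 1 (0.261% of all genes), by 9 without rPTH 2 (1.27%) and by 3 without rPTH 3 (1.46%). Leaving out control 1, 2 or 3 gave 8 of 24 (4.46%), 3 of 26 (1.13%) and 6 of 24 (3.79%), and without control 1 there was also 1 lower, Col15a1 (7.95%). The median without rPTH 1 was 0.24.

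**Figure D1:**
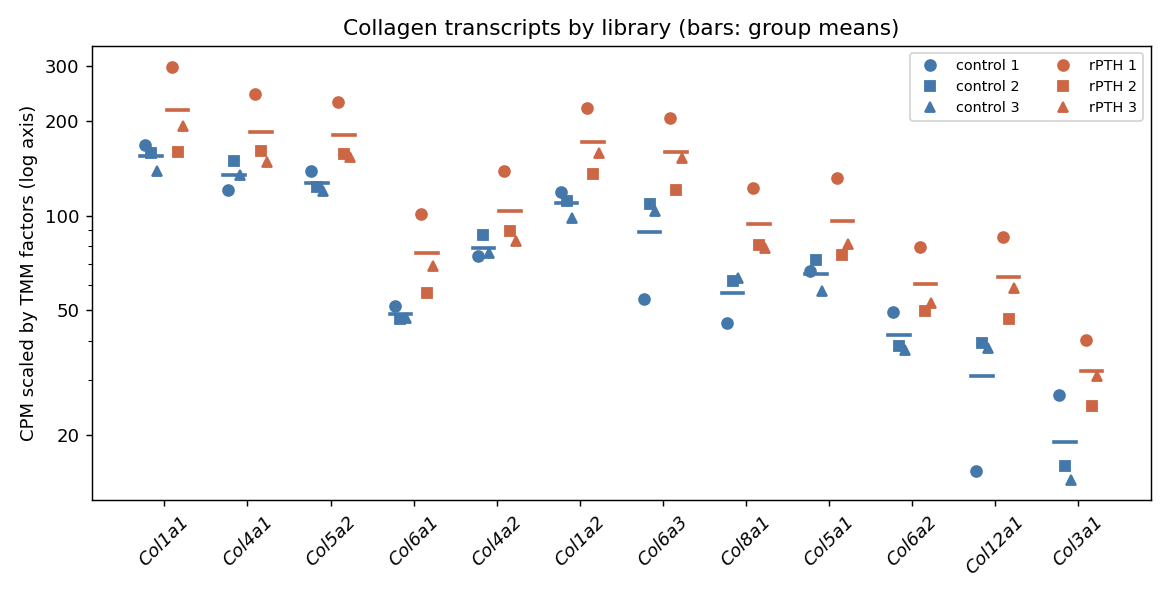
TMM-scaled CPM (log axis) of the 12 collagen genes with the highest level per kb, 1 point per sample by group and replicate, with the group means. The rPTH 1 point is the highest for every gene shown, and control 1 lies far below the other controls for Col6a3 and Col12a1.

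Collagen I is a trimer of Col1a1 and Col1a2 chains. Col1a1 (chromosome 11, 94936224 to 94953042, GRCm38, GENCODE M21) had 168, 159 and 138 TMM-scaled CPM in the controls and 298, 159.9 and 193 CPM with rPTH. Only rPTH 1 and 3 lay above all controls, and rPTH 2 overlapped them; the log2 fold change was 0.49 ± 0.26 (SE). Col1a2 (chromosome 6, 4504814 to 4541544) had 119, 112 and 98.4 CPM in the controls and 219, 136 and 158 CPM with rPTH. All its rPTH samples lay above all controls, with a log2 fold change of 0.64 ± 0.22. In the authors' deposited table the log2 fold change was 0.50 for Col1a1 and 0.66 for Col1a2, with an adjusted p of 0.438 and 0.164, the latter the smallest of any collagen there.

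The balance of the 2 chains was also measured within each sample, where scaling does not enter. Col1a1 counts over Col1a2 counts gave 1.42, 1.42 and 1.41 in the controls and 1.36, 1.17 and 1.22 with rPTH. The controls lay close together and above every rPTH sample. The exact two-sided permutation test gave p = 0.1, the smallest that 3 against 3 allows, and 0.5 after adjustment over the 10 ratios computed. A ratio of counts is still open to each sample's trend on transcript length and GC content, described further on. With that trend removed the log2 fold changes were 0.46 for Col1a1 and 0.43 for Col1a2, against 0.49 and 0.64 before.

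Collagen III, made of Col3a1 alone, and collagen V, a regulator of fibril width made mostly of Col5a1 and Col5a2, join collagen I in mixed fibrils. Col3a1 (chromosome 1, 45311538 to 45349706) had 26.8, 15.99 and 14.4 CPM in the controls and 40.2, 24.9 and 31.0 CPM with rPTH, a log2 fold change of 0.75 ± 0.30. Control 1 lay above rPTH 2, and without control 1 the fold change was 1.06. Col5a2, the neighbour of Col3a1 on the other strand (chromosome 1, 45374321 to 45503282), had 139, 123 and 120.0 CPM in the controls and 230.5, 157 and 153 CPM with rPTH. Its groups did not overlap, with a log2 fold change of 0.50 ± 0.21. Col5a1 (chromosome 2, 27886425 to 28039514) had 66.6, 72.0 and 57.7 CPM in the controls and 132, 75.2 and 81.5 CPM with rPTH, again without overlap, though rPTH 2 exceeded control 2 by little (0.56 ± 0.25). Col5a2 counts over Col5a1 counts gave 1.71 to 2.09 in the controls and 1.75 to 2.09 with rPTH, ranges that cover each other.

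The cartilage-type and other minor fibril-forming chains were far lower. Col27a1 had 2.06 ± 0.153 and 3.08 ± 1.122 CPM in the controls and with rPTH (SD, n = 3 each), without overlap, and Col11a1 had 1.87 ± 0.751 and 2.83 ± 0.853 CPM, with overlap. Col5a3, at 2.90 ± 0.231 and 2.76 ± 0.383 CPM, overlapped too. Col11a2 had 2.18, 3.14 and 2.60 CPM in the controls and 2.09, 1.71 and 2.72 CPM with rPTH, with control 2 the highest and rPTH 2 the lowest (-0.28 ± 0.31). Col2a1, the main chain of cartilage collagen, had 4 to 14 counts a sample and Col24a1 2 to 9 counts. As a class 9 of 11 fibril-forming genes were tested, 7 of them above 0, with a median log2 fold change of 0.56.

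Collagen IV genes lie in head-to-head pairs. Col4a1 (chromosome 8, 11198423 to 11312826) and Col4a2 (chromosome 8, 11312805 to 11449287) are on opposite strands and overlap by 22 bases in GENCODE M21; whether the counting used the strand was not stated. Col4a1 had 121, 149 and 135 CPM in the controls and 244, 160.1 and 148 CPM with rPTH, a log2 fold change of 0.45 ± 0.23. Col4a2 had 74.4, 87.0 and 76.0 CPM and 138, 89.7 and 83.1 CPM, a log2 fold change of 0.39 ± 0.23. In both genes rPTH 1 stood alone and the other rPTH samples lay near the controls: without rPTH 1 the fold changes were 0.19 and 0.13. Col4a1 counts over Col4a2 counts gave 1.62 to 1.77 in the controls and 1.76 to 1.79 with rPTH. Of the pair on chromosome X, Col4a5 had 1.27, 2.25 and 2.51 CPM in the controls and 3.49, 2.35 and 2.08 CPM with rPTH (0.39 ± 0.37), with only rPTH 1 above all controls. Its partner Col4a6 had 1, 2 and 8 counts in the controls and 5, 9 and 1 with rPTH. Col4a3, a chain of kidney and lung basement membranes, had 5, 2 and 8 counts in the controls and 2, 4 and 7 with rPTH. Col4a4, which pairs with it, had 0, 3 and 8 counts in the controls and 4, 6 and 5 with rPTH, and these 3 were too low to test.

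Collagen VI is built from Col6a1, Col6a2 and a long chain, most often Col6a3. Col6a1 (chromosome 10, 76708792 to 76726168) had 51.8, 46.8 and 47.4 CPM in the controls and 101, 57.0 and 69.4 CPM with rPTH. Col6a2 (chromosome 10, 76595762 to 76623630) had 49.3, 38.4 and 37.2 CPM and 79.5, 49.8 and 52.7 CPM. Neither overlapped between groups, although control 1 came within 1 CPM of rPTH 2 for Col6a2, and the log2 fold changes were 0.64 ± 0.23 and 0.54 ± 0.23. Col6a3 (chromosome 1, 90765923 to 90843971) had 54.2, 109 and 104 CPM in the controls and 204, 121 and 152 CPM with rPTH, without overlap (0.84 ± 0.32). Control 1 was the lowest by far, with about as many counts of Col6a3 as of Col6a1, a ratio of 1.05, against 2.32 and 2.19 in the other controls and 2.01 to 2.20 with rPTH. Col6a4, Col6a5 and Col6a6, the alternative long chains, had at most 6 counts in any sample.

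Col12a1, a fibril-associated chain of dense connective tissue (chromosome 9, 79598991 to 79718831), had the highest log2 fold change of the tested collagens, 1.04 ± 0.40. It had 15.5, 39.4 and 38.1 CPM in the controls and 85.8, 47.0 and 58.9 CPM with rPTH. The groups did not overlap, and control 1 lay far below the other controls; without control 1 the fold change was 0.71. Col12a1 counts over Col1a1 counts gave 0.0917 in control 1, 0.248 and 0.275 in the other controls and 0.288 to 0.304 with rPTH (exact permutation p = 0.1, adjusted 0.5). Col16a1, also fibril-associated, had 14.3 ± 5.09 and 16.03 ± 4.88 CPM (SD, n = 3 each). Col9a3, a cartilage chain near the filter, had 8, 19 and 12 counts in the controls and 14, 11 and 15 with rPTH, and the lowest log2 fold change, -0.50 ± 0.39.

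Col8a1 (chromosome 16, 57624258 to 57754737), a short-chain network collagen of vessels and eye, had 45.4, 61.8 and 63.5 CPM in the controls and 123, 81.0 and 79.0 CPM with rPTH. All rPTH samples lay above all controls (0.73 ± 0.24). Its usual partner Col8a2 had 2, 0 and 5 counts in the controls and 12, 4 and 6 with rPTH, too few to test.

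Other collagens did not share this pattern. Col18a1 (chromosome 10, 77052178 to 77166548), a multiplexin of basement membranes whose end fragment is endostatin, had 19.1, 20.7 and 16.004 CPM in the controls and 17.0, 17.9 and 18.8 CPM with rPTH. Col15a1 (chromosome 4, 47208161 to 47313167), the other multiplexin, had 11.3, 15.9 and 17.5 CPM and 12.4, 12.96 and 14.5 CPM. In both the rPTH samples lay within the range of the controls, and rPTH 1 was the lowest of the 3, while it was the highest for each of the 12 leading genes. The log2 fold change was -0.05 ± 0.17 for Col18a1, with a sign that changed with the scaling, and -0.17 ± 0.21 for Col15a1. Col7a1 (chromosome 9, 108953586 to 108984875), the anchoring fibril chain of skin, had 7.60, 4.38 and 4.15 CPM and 4.79, 4.002 and 4.80 CPM, with control 1 above the other 5 (-0.24 ± 0.30). Whether these genes differ from the leading collagens beyond chance was not tested. Col18a1 overlaps Slc19a1 on the other strand, and Col15a1 overlaps Gm12426, whose reads are not separated here if strand was not used.

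**Figure D2:**
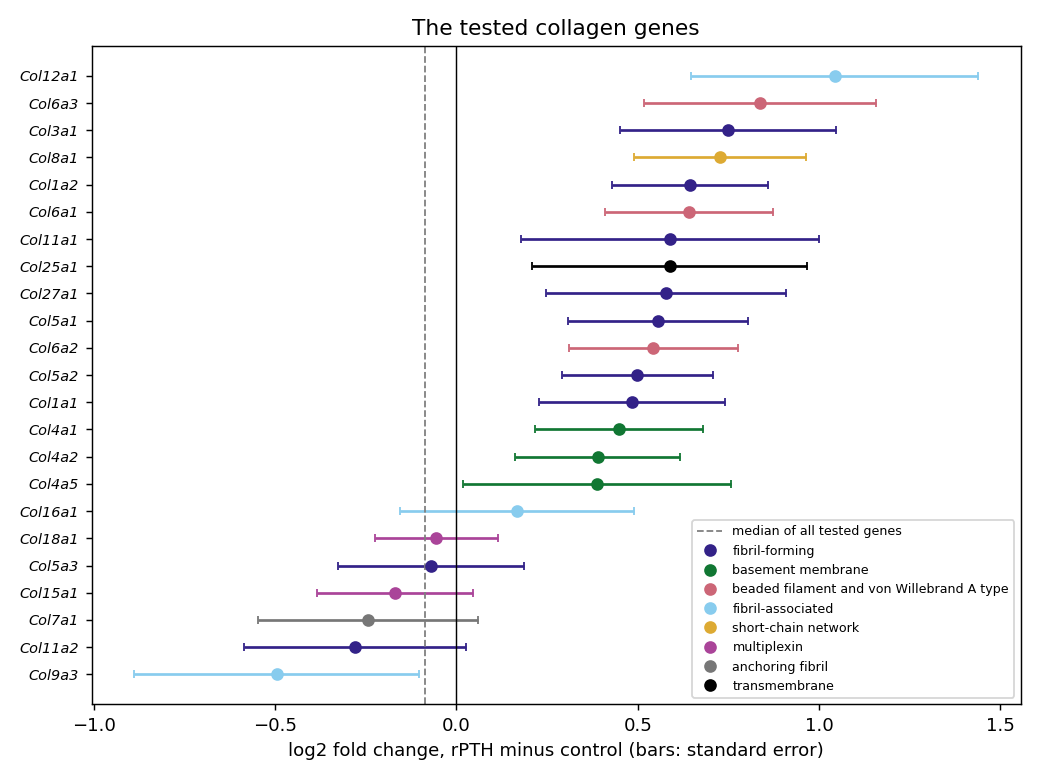
Log2 fold change (rPTH minus control) with its standard error for the 23 tested collagen genes, coloured by class, with a line at the median of all tested genes (-0.09). Col12a1 lies highest at 1.04, and the multiplexins Col15a1 and Col18a1 lie at -0.17 and -0.05, the latter with a sign that changes with the scaling.

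The controls differed by transcript. Control 1 over the mean of control 2 and 3 (TMM-scaled CPM) was 0.399 for Col12a1, 0.442 for Col11a1 and 0.510 for Col6a3, but 1.76 for Col3a1, 1.77 for Col16a1 and 1.78 for Col7a1. Across the 23 tested genes, which share these 3 samples and are not replicates, this ratio was higher with a higher GC content of the longest coding transcript (Pearson r = 0.51, Spearman rho = 0.45) and lower with its length (r = -0.35, rho = -0.29), given as a description. The long stromal transcripts Fn1 and Fbn1, which are not collagens, had 0.471 and 0.440. A step chosen after seeing the data removed each sample's trend on GC content and on length, here the summed exon length. The median log2 fold change of the tested collagens was then 0.39. An unadjusted p under 0.05 and a higher level was reached in edgeR by 5 of 23 (2.52% of all genes): Col5a1, Col6a1, Col6a3, Col8a1 and Col12a1.

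**Figure D3:**
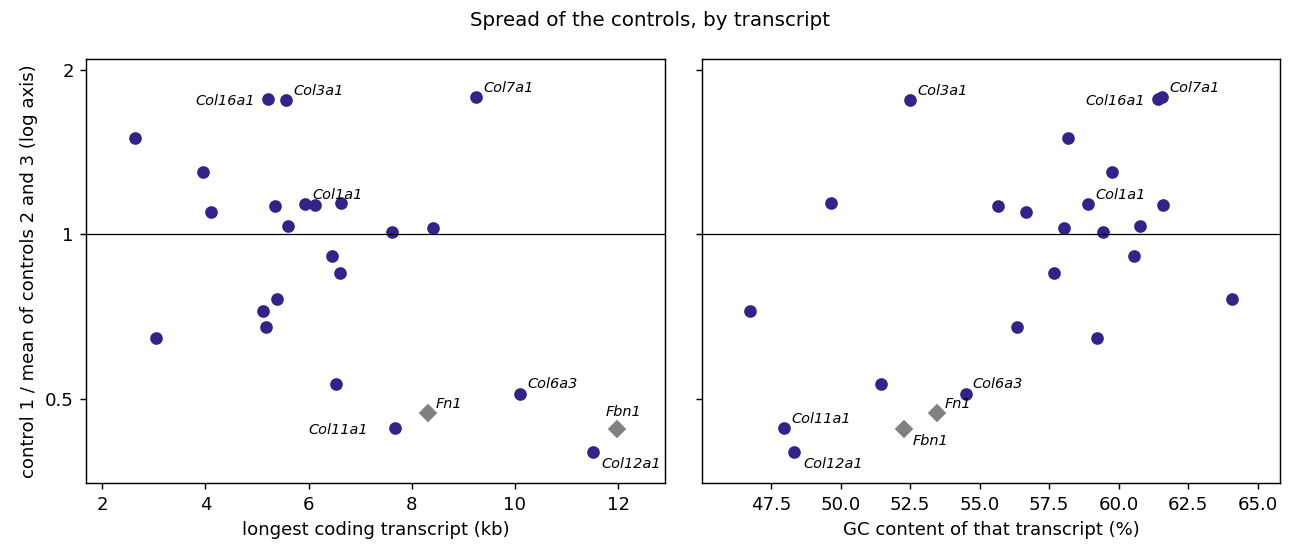
Level in control 1 divided by the mean of control 2 and 3 (log axis) against transcript length and GC content, 1 point per tested collagen gene, with Fn1 and Fbn1 for comparison. Col12a1, Col11a1 and Col6a3 lie lowest at 0.399 to 0.510, and Col3a1, Col16a1 and Col7a1 highest at 1.76 to 1.78.

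Markers of stromal cells and osteoblasts other than collagens were mostly higher with rPTH too, but none passed the test in edgeR. DESeq2 called the stromal marker Thbs2 (adjusted p = 0.032, with 0.0299% of all genes called). Thbs2 had 190, 181 and 187 CPM in the controls and 412, 268 and 342 CPM with rPTH (edgeR log2 fold change 0.88 ± 0.20). All 27 markers of these lists were in the table and 19 were tested; in edgeR 0 had an adjusted p under 0.05 (the smallest was 0.619), and 6 had an unadjusted p under 0.05, all higher, against 1.98% of all tested genes. The log2 fold change was above 0 for 18 of 19, against 41.5% of all tested genes, with a median of 0.57, and was -0.12 for Twist1. Groups did not overlap for 10 of 19, all higher, against 8.35% of all tested genes. Sp7, with 7, 13 and 10 counts in the controls, and Dlx5, with 14, 7 and 11, were among these 10. For each the control with 7 counts lay below the low-count filter while every rPTH sample passed it. Both were thus tested partly for being higher with rPTH, and Sp7 was also among the 6 with an unadjusted p under 0.05 in edgeR. The sums of the 27 markers were 1722, 1873 and 1901 CPM for the controls and 3760.2, 2503 and 2588 CPM for rPTH. Here too every rPTH sample lay above every control and rPTH 1 was the highest. Most of each sum came from Fn1, Spp1, Bgn, Thbs2 and Sparc. Runx2, the transcription factor of the osteoblast lineage, had 17.5, 20.1 and 19.5 CPM in the controls and 35.6, 24.5 and 23.2 CPM with rPTH, and Fn1, fibronectin, had 244, 523 and 511 CPM and 1023, 584 and 669.8 CPM, and both were among the 10 without overlap. The abundant matrix genes Spp1, Bgn and Sparc were among the 9 with overlap: Spp1 had 761, 412 and 439 CPM and 846, 625 and 525 CPM, Bgn 576, 410.3 and 414 CPM and 816, 552 and 535 CPM and Sparc 202, 134 and 128 CPM and 252, 170.5 and 170.2 CPM. The 8 markers that were not tested were near the limit, with summed counts over all 6 samples of 22 for Bglap, 19 for Bglap2, 17 for Fap, 13 for Dcn, 6 for Thy1, 5 for Lum, 3 for Ibsp and 3 for Dmp1.

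Relative to these markers, collagen counts lay in the same range in both groups. Most counts of the markers came from Fn1, Spp1, Bgn, Thbs2 and Sparc, so this comparison rests mainly on those genes. Collagen counts over counts of the non-collagen markers gave 0.471, 0.597 and 0.543 in the controls and 0.540, 0.510 and 0.546 with rPTH. The rPTH values lay within the range of the controls, with means of 0.537 ± 0.0634 and 0.532 ± 0.0191 (SD, n = 3 each) and an exact two-sided permutation p of 0.9, adjusted 1, which does not show that the ratio was unchanged.

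With samples scaled to these markers, a scaling chosen after seeing the data, the median log2 fold change of the 23 tested collagens was -0.054, beside -0.60 for all tested genes. The scaling, too, rests mainly on the same abundant markers. In edgeR 0 of 23 had an unadjusted p under 0.05 higher (0.018% of all genes) and 0 lower (35.2%). On this scale Col1a1 had -0.088, Col4a1 -0.13, Col5a2 -0.054, Col1a2 0.089, Col6a3 0.25 and Col12a1 0.44. Col18a1 had -0.55, Col15a1 -0.68 and Col7a1 -0.74, close to the median of all genes.

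**Figure D4:**
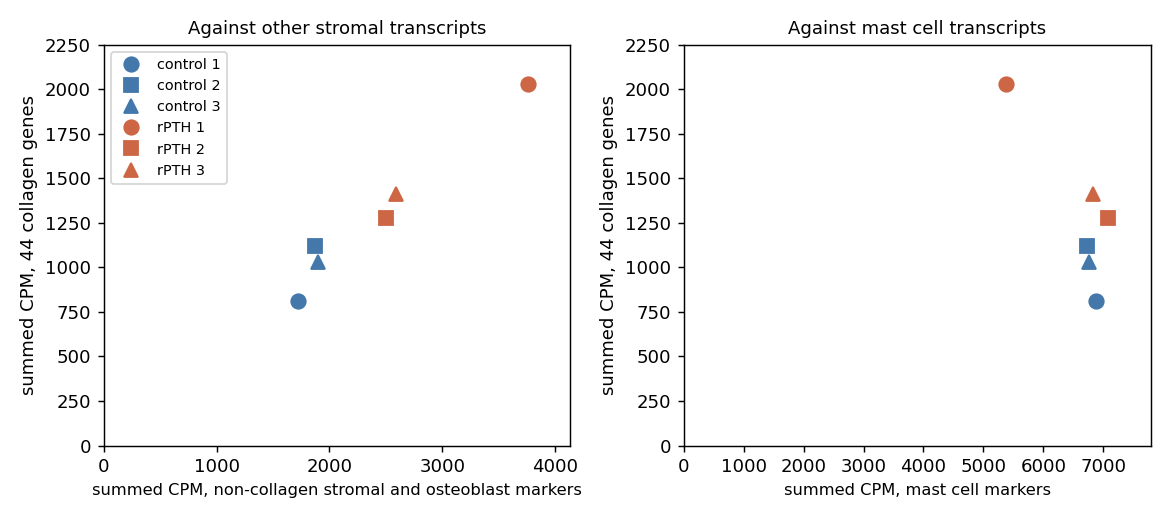
Summed plain CPM of the 44 collagen genes in each sample against the summed CPM of the 27 non-collagen stromal and osteoblast markers and of the 10 mast cell markers. Fn1, Spp1, Bgn, Thbs2 and Sparc make up most of the stromal and osteoblast sum. rPTH 1 has the highest sum of stromal markers (3760.2 CPM) and of collagens (2029 CPM) and the lowest of mast cell markers (5378 CPM).

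Markers of other cell types were measured beside the collagens, each given as the range in the controls and the range with rPTH. The 6 cartilage markers summed to 33.3 to 52.3 and 48.8 to 68.1 CPM, nearly all Hapln1, while Acan, the cartilage proteoglycan, had 15 counts over all samples. Of the rarer cartilage markers Sox9, the chondrocyte transcription factor, had 1.01, 1.08 and 1.17 CPM and 2.76, 1.59 and 1.63 CPM (0.87 ± 0.34), and Comp, a cartilage matrix protein, had 0.760, 0.736 and 0.476 CPM and 0.317, 0.174 and 0.365 CPM (-1.19 ± 0.44), higher and lower with rPTH without overlap. Of the 6 cartilage markers 3 were tested. Groups did not overlap for 1 higher, against 8.35% of all tested genes, and for 1 lower, against 8.46%. Neither Sox9 nor Comp passed in edgeR (adjusted p = 0.619 for both). Comp passed the low-count filter with every control but, of the rPTH samples, with rPTH 3 alone, so it was tested partly for being lower with rPTH. Matn1 had 0, 0 and 0 counts in the controls and 2, 1 and 3 with rPTH, and Matn3 had 1, 4 and 2 counts in the controls and 8, 9 and 6 with rPTH, too few to test. The 5 endothelial markers summed to 149 to 209.5 and 152 to 204 CPM, nearly all Pecam1, with Cdh5 at 15 counts over all samples. The 5 adipocyte markers summed to 12.6 to 27.9 and 15.4 to 23.0 CPM, mostly Fabp4, with Adipoq at 14 counts. The 4 macrophage markers summed to 11.1 to 16.8 and 14.9 to 16.8 CPM, mostly Cd14, and the 4 epithelial markers to 0.0820 to 0.359 and 0.212 to 0.238 CPM. The ranges of these 5 sums overlapped between groups, and the part of such cells in the collagen values was not tested.

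Making a collagen takes enzymes and chaperones in the endoplasmic reticulum and cross-linking enzymes outside the cell. Of 32 such genes 29 were tested, 23 above 0 and 6 below, with a median log2 fold change of 0.09, beside 41.5% of all tested genes above 0. In edgeR 0 passed (adjusted p from 0.619 to 0.985), and 3 had an unadjusted p under 0.05, all higher, against 1.98% of all tested genes: Lox, Loxl2 and Fkbp14. Groups did not overlap for 7 of 29 higher, against 8.35% of all tested genes, and for 1 lower, against 8.46%. The cross-linking enzyme Lox had 40.0, 53.6 and 51.7 CPM in the controls and 125, 77.2 and 81.4 CPM with rPTH (0.97 ± 0.24). Its relative Loxl2 had 11.2, 14.7 and 13.8 CPM and 20.8, 17.7 and 18.2 CPM (0.51 ± 0.18). The peptidyl-prolyl isomerase Fkbp14 had 2.99, 3.33 and 3.29 CPM and 6.86, 4.61 and 4.01 CPM (0.69 ± 0.28). All rPTH samples lay above all controls for each of these. P4ha3, a prolyl hydroxylase subunit, had 1.82, 1.74 and 2.12 CPM and 3.46, 2.49 and 2.58 CPM (0.58 ± 0.28), and Loxl4, another cross-linking enzyme, had 4.97, 8.25 and 7.18 CPM and 13.8, 8.64 and 8.75 CPM (0.61 ± 0.30), both without overlap.

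The genes named by the rule for their role follow. P4hb, the shared subunit of prolyl hydroxylase and a folding enzyme of other secreted proteins too, had 1385, 975 and 904 CPM in the controls and 966, 1068 and 951 CPM with rPTH, which overlapped (-0.13 ± 0.24). Serpinh1, the collagen chaperone, had 293, 187 and 176 CPM and 339, 236 and 209 CPM, with control 1 above rPTH 2 and 3 (0.26 ± 0.28). Plod2, a lysyl hydroxylase, had 26.5, 31.0 and 33.7 CPM and 40.4, 37.6 and 35.4 CPM, without overlap (0.31 ± 0.16). The others without overlap were Colgalt1, a collagen sugar transferase, higher at 0.20 ± 0.14, and Creb3l1, a transcription factor of the secretory pathway, lower at -0.21 ± 0.16.

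Cells bind collagen through integrins and receptor kinases. Of 10 such genes 7 were tested, 6 above 0, with a median log2 fold change of 0.40, beside 41.5% of all tested genes above 0. In edgeR 0 passed (adjusted p from 0.619 to 0.914), and 1 of 7, Ddr2, had an unadjusted p under 0.05 and was higher, against 1.98% of all tested genes. Groups did not overlap for 3 of 7, all higher, against 8.35% of all tested genes. Ddr2, a collagen-binding receptor kinase of mesenchymal cells, had 25.4, 37.3 and 42.7 CPM in the controls and 77.9, 52.9 and 48.9 CPM with rPTH, without overlap (0.77 ± 0.27). Ddr1, its relative in epithelia, had 53.3, 60.02 and 52.6 CPM and 62.5, 54.9 and 55.6 CPM, which overlapped (0.06 ± 0.15). The integrin chain Itgb1 had 292, 291 and 314 CPM and 471, 377 and 335 CPM and the endocytic collagen receptor Mrc2 42.3, 37.1 and 33.2 CPM and 64.9, 42.6 and 42.8 CPM, both without overlap. Itga11, a collagen-binding integrin chain of fibroblasts, had 3.90, 9.45 and 7.44 CPM and 6.16, 6.70 and 6.03 CPM, with the controls on both sides of the rPTH samples. Itga1 had 2, 2 and 10 counts in the controls and 22, 25 and 13 with rPTH, highest in rPTH 2. It passed the low-count filter with every rPTH sample but, of the controls, with control 3 alone. It was thus tested partly for being higher with rPTH. Its log2 fold change, the largest of the list at 1.52 ± 0.68, is counted in the 6 above 0 and in the median. Itga2, Gp6 and Lair1 were too low to test.

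The 21 collagens below the filter had 0 to 16 counts in any sample and at most 43 counts over all 6. Tested genes were 3 of 6 of collagen IV, 3 of 9 fibril-associated chains, 3 of 7 of the filament and von Willebrand type, 1 of 3 short-chain network chains and 1 of 4 transmembrane chains, and Col26a1 was not tested. Col10a1, the mark of hypertrophic cartilage, had 2, 1 and 4 counts in the controls and 13, 6 and 6 with rPTH. Col17a1, the transmembrane collagen of skin, had 0, 1 and 3 counts in the controls and 8, 9 and 2 with rPTH. Counts this low do not allow a fold change to be read. The authors' deposited table gives an adjusted p under 0.05 for 0 of the 21 collagens with an adjusted p there (0.0707% of all genes). An unadjusted p is given there for all 44 collagens. It was under 0.05 for 10 of 44, all higher with rPTH (1.71% of the 38144 genes with such a p), and for 0 lower (3.38%). Without the low-count filter 11 of 44 had an unadjusted p under 0.05 in edgeR and were higher (1.99% of all genes).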

How the data were processed

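RNA of 6 MC/9 samples (3 control, 3 rPTH) was analysed from whole-number counts per gene, which the authors deposited without normalization. The submitters' processing notes name, with no roles, Trimmomatic 0.36; STAR 2.5.2b; Subread 1.5.0p3, featureCounts; DESeq2 1.12.4; R 3.3.0. They name the builds GRCm38.p5 and mm9; annotation and strand setting were not given in the sources used here. A comparison table deposited by the authors gives a mean signal, log2 fold changes, a Wald score and p-values, and is quoted for collagens only. Positions come from GENCODE M21 (GRCm38), where 44 of 44 collagens matched by symbol.

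The test was edgeR 4.0.16 (quasi-likelihood, robust, TMM factors, filterByExpr with a minimum count of 10, Benjamini-Hochberg, threshold 0.05) in R 4.3.3, fitted over all 16696 genes that passed the filter, 3 samples against 3. Its steps were also run on simulated counts with the same spread for every gene, which does not show how well the test performs on these data. Single genes are in TMM-scaled CPM and sums in plain CPM. Alternatives used DESeq2 1.42.0, limma 3.58.1 and other scalings, filters and sets of samples. The naming rule took the 12 collagens of highest level per length, the 5 of smallest p in each direction, collagen IV pairs and trimer partners and, of the making and binding lists, the 5 of smallest p and 6 set genes. Other collagens named as examples (Col2a1, Col5a3, Col10a1, Col11a1, Col16a1, Col17a1, Col24a1, Col25a1, Col26a1, Col27a1) Colgalt1, Creb3l1 and all marker genes named were chosen after their values were seen. The members and lists were chosen with earlier results of these data known.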

Additional observations from a re-analysis of the deposited data

How the results depend on the processing

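No collagen gene passed an adjusted p of 0.05 under any setting tried, and the log2 fold change of the 12 leading collagens stayed above 0 in all 16 alternatives other than the scaling to non-collagen stromal markers. The number of collagens higher at an unadjusted p under 0.05, which was 7, became 11 without the low-count filter and 0 with the stromal scaling, and ran from 0 (without rPTH 1) to 9 when single samples were left out, and the number lower from 0 to 1. With the replicate number as a block it was 4 (Col1a2, Col3a1, Col6a1 and Col6a2; 0.689% of all genes); the block called 0 genes by adjusted p. Same-numbered samples had correlations of their deviations of -0.13, -0.32 and 0.14, and not every sample correlated best with its own number. With so few samples a group, these correlations cannot decide whether the numbers pair the samples. Over all genes DESeq2 called 5 (Pde8a, Olfr56, Thbs2, Gm11694 and Gm7079) and edgeR 0. Thbs2 is on the list of non-collagen stromal markers. With the stromal scaling the median was -0.054, and Col1a1 (-0.088), Col4a1 (-0.13), Col5a2 (-0.054), Col4a2 (-0.19), Col5a1 (-0.022), Col6a2 (-0.010) and Col4a5 (-0.20) lay below 0, since the markers divided by were higher with rPTH. Col18a1 lay above 0 with DESeq2 size factors (0.0032), in DESeq2 (0.0029), with library totals alone (0.072) and without the filter (0.071); the cause was not tested. With single samples left out Col18a1 ran from -0.091 to 0.025, Col7a1 from -0.38 to 0.077, Col15a1 from -0.34 to 0.039, the collagen median from 0.24 to 0.64 and the difference in summed collagen CPM from 357 to 734. The RefSeq coding length was not run, since no protein table was used here. Depth limits the 21 collagens below the filter.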

Other observations

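Of the 21 collagen genes too low to test, 11 had their highest plain CPM in control 3. On the TMM scale fewer did. Col23a1 (0.405 against 0.346 CPM) and Col9a1 (0.101 against 0.0865 CPM) were then higher in control 1 than in control 3. Control 3 also had the most genes with a count (31346, against 25880 to 29229 in the other 5 samples). Summed over the 21 genes, the plain CPM was 1.93, 2.20 and 4.71 in the controls and 3.49, 2.85 and 3.04 with rPTH, from 47 to 107 counts each. Control 3 was the highest for Col26a1 (0, 2 and 9 counts in the controls and 2, 1 and 3 with rPTH) and Col4a4 (0, 3 and 8 counts and 4, 6 and 5). For each of the 12 leading collagens rPTH 1 was the highest. Among the controls alone, control 3 was the highest of these 12 for Col8a1 only (45.4, 61.8 and 63.5 CPM in the controls).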
